A study of Mus musculus with 2 samples.

Results

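Mir221 and Mir222 are neighbouring microRNA genes on the X chromosome that are read from the same strand, and they were followed here in small RNA libraries of whole mouse heart. They were chosen by name, as the rows of the deposited count tables whose Ensembl identifiers carry these symbols in the GENCODE M21 annotation. The members are therefore 2 of the 2202 microRNA genes in the tables. The series holds 1 group of 2 libraries from whole heart of male B6CASTF1/J mice at 2 months of age, and the labels name no treatment. B6CASTF1/J mice are first-generation crosses between a standard laboratory strain, C57BL/6J, and CAST/EiJ, a strain derived from wild mice. The labels give replicates 1 and 2 as different males with separate biosamples, although both carry the same donor identifier, so their spread may be partly technical.

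A microRNA gene is transcribed into a hairpin, and cutting of that hairpin frees a short mature strand. The mature strand guides a silencing complex to messenger RNAs, mainly through pairing of its bases 2 to 8, the seed. In blood vessels, miR-221 and miR-222 are known to promote growth of smooth muscle cells by repressing the cell cycle inhibitors Cdkn1b and Cdkn1c. In endothelial cells they are known to repress Kit, the receptor of stem cell factor, and to restrain angiogenesis.

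The mature strands carried by the cluster show how alike its members are at the seed and how they differ beyond it. In the RefSeq sequences of GRCm38.p6, given 5′ to 3′ with the seed in capitals, 3 of 1738 mature mouse microRNAs begin with the same seed, and the third is miR-1928 of chromosome 1.

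mmu-miR-221-3p: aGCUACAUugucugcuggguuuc

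mmu-miR-222-3p: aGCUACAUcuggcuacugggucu

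mmu-miR-1928: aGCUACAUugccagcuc

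The first 8 bases of miR-221-3p and miR-222-3p were identical, and over all 23 positions 11 matched and 12 differed. Mature miR-221-3p lies at chrX:19146307-19146329 and miR-222-3p at chrX:19146901-19146923, both on the minus strand. The other arm of the Mir221 hairpin, miR-221-5p at chrX:19146344-19146369, has a seed that no other sequence in the table shares.

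mmu-miR-221-5p: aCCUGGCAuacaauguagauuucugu

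The hairpins are shown whole because a deposited count covers the full hairpin, so reads of both arms add to 1 value per gene. Capitals mark the mature strands listed in the table. Of Mir222 only miR-222-3p is listed there, so the other arm of its hairpin is not marked.

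Mir221: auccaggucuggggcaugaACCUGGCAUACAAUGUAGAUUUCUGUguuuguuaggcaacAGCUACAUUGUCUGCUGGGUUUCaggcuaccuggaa

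Mir222: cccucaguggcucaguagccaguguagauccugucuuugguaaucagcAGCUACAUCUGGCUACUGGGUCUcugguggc

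Mir221 (ENSMUSG00000065422.1) is a hairpin of 95 bases at chrX:19146294-19146388 on mm10, and Mir222 (ENSMUSG00000065471.1) one of 79 bases at chrX:19146893-19146971. The gap between them is 504 bases, and on the minus strand Mir222 comes first. No other annotated gene overlaps either hairpin, so the annotation places them in no exon or intron of a host. The nearest gene upstream is Gm14636, a noncoding transcript on the same strand whose annotated 3′ end lies 10009 bases from Mir222. GC content was 47.4% in Mir221 and 54.4% in Mir222. The folding energy predicted by RNAfold was -42.8 kcal/mol for Mir221 and -40.7 kcal/mol for Mir222.

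Because reads with several places in the genome enter no gene row, shared sequence decides which microRNAs can be counted. The longest stretch that Mir221 shares with any other of the 2202 hairpins was 13 bases, and that of Mir222 was 12 bases. With each other the members share 9 bases. These stretches are shorter than the mature strands, so a read that spans a mature strand of either member matches no other of these hairpins in full. Similar sequence elsewhere in the genome was not searched.

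The known targets show the sequence that this seed pairs with. The motif ATGTAGC, the complement of seed bases 2 to 8, was searched on the transcript strand of annotated 3′ UTRs, and it is in capitals in the windows of 27 bases below. Cdkn1b has 1 match at chr6:134924421-134924447 (plus strand), Cdkn1c has 1 at chr7:143458916-143458942 (minus strand), and Kit has 2, at chr5:75654982-75655008 and chr5:75656513-75656539 (plus strand).

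Cdkn1b: aaagcattggATGTAGCattgcgcaat

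Cdkn1c: cctttcgttcATGTAGCaggaaccgga

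Kit, first: tgggagatatATGTAGCaagactagaa

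Kit, second: aaatattgaaATGTAGCaataatgtct

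In each of these windows the motif is followed by an A. Among 3′ UTRs within 20% of the same length, 22.4% hold the motif at the length of Cdkn1b, 4.61% at that of Cdkn1c and 15.4% at that of Kit. Over all 20755 3′ UTRs the share is 8.71%. The matches are descriptions of sequence, and no messenger RNA was measured in the libraries used here.

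Both libraries had similar depth. Replicate 1 held 10362589 reads and replicate 2 held 10483233, of which 3650782 and 3810675 were counted on the strand of a microRNA gene. Levels are given as CPM, counts per 1000000 of these gene counts. Cardiac muscle microRNA genes were present, with Mir499 at 2601 CPM in replicate 1 and 2507 CPM in replicate 2. Mir208a, of the myosin gene Myh6, was at 1329 and 4265 CPM. These markers of heart muscle were thus detected in both libraries, at levels that lay far apart for Mir208a.

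Mir221 was a well counted gene in both hearts, and Mir222 lay far below it. Mir221 had 9341 counts in replicate 1, or 2559 CPM (Clopper-Pearson 95% interval 2507 to 2611). In replicate 2 it had 7433 counts, or 1951 CPM (1907 to 1995). Its level was thus the higher in replicate 1, with counting intervals that do not overlap. The mean was 2255 CPM ± 430.0 (SD, n = 2), and by mean level Mir221 ranked 42 among the 2202 genes. Reads with several places in the genome, on average 47.2% of all reads, enter no gene row. Ranks here and below are therefore among uniquely placed reads, and genes with shared mature strands may rank too low.

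Mir222 had 435 counts in replicate 1, or 119 CPM (interval 108 to 131). In replicate 2 it had 911 counts, or 239 CPM (224 to 255). Here replicate 2 was the higher, again without overlap of the counting intervals. The mean was 179 CPM ± 84.8 (SD, n = 2), rank 111 by mean level, with rank 130 in replicate 1 and rank 108 in replicate 2. Relative to its mean the spread between the libraries was 47.3% for Mir222 and 19.1% for Mir221. These intervals cover counting error only and leave out the spread between libraries. Reads of amplified libraries are not independent molecules, so the intervals may be too narrow even for counting error.

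No read lay on the opposite strand of either member in either library, and the counts without regard to strand were the same as those on the strand. Mir1928, which shares the seed, had 0 counts in both libraries. A count of 0 allows a level of at most 0.822 CPM in replicate 1 and of 0.787 in replicate 2, at 3 counts each. Counted reads of hairpins with the seed GCUACAU therefore came from Mir221 and Mir222. Their summed level was 2678 CPM in replicate 1 and 2190 CPM in replicate 2, a mean of 2434 CPM ± 345 (SD, n = 2).

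**Figure D1:**
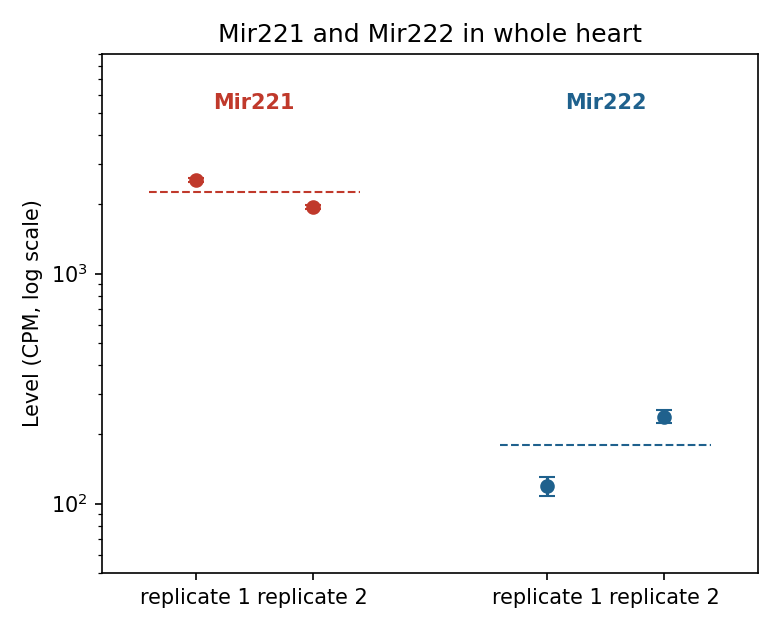
Level of Mir221 and Mir222 in CPM on a log axis for each library. Points are libraries, bars are Clopper-Pearson 95% counting intervals and dashed lines are the means of 2 libraries. Mir221 was higher in replicate 1 (2559 against 1951 CPM) and Mir222 was lower there (119 against 239 CPM).

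The first question within the cluster is how the members relate to each other in the same library. Mir221 exceeded Mir222 by 21.5 times in replicate 1 and by 8.16 times in replicate 2. Mir221 made up 95.6% of the counts of the cluster in replicate 1 (Clopper-Pearson 95% interval 95.1 to 96.0). In replicate 2 it made up 89.1% (88.4 to 89.7). The direction was the same in both hearts while the size of the excess differed. The mean log2 ratio of Mir221 to Mir222 was 3.72 ± 0.98 (SD, n = 2). An exact sign-flip permutation test over 2 libraries cannot give a p below 0.5, so this ratio was not tested across animals. Mature strands can differ in how readily they enter a library, and no correction for this was made, so the ratio is one of counted reads.

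Some adjacent microRNA genes differed in level by more. There were 75 pairs of adjacent genes on the same strand with starts at most 10 kb apart, both counted well enough to be tested. Their median absolute log2 ratio of levels was 2.65, and 21 pairs had a larger ratio than Mir221 and Mir222. The widest was the pair of Mir29a and Mir29b-1, at 8.21. Reads with several places in the genome enter no gene row, and shared sequence was searched for the members only. The part of such uncounted reads in the ratios of the other pairs was not tested.

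A second question is whether the members moved together between the hearts. They did not: Mir221 was higher in replicate 1 and Mir222 was lower. The shift is the log2 ratio of replicate 1 over replicate 2, after scaling of the libraries with TMM (a trimmed mean over genes). For Mir221 it was 0.40 (counting interval 0.36 to 0.45), and an exact binomial test, two-sided, gave a Benjamini-Hochberg adjusted p of 1.79e-72 over 320 genes. For Mir222 it was -0.99 (interval -1.16 to -0.83), with an adjusted p of 2.54e-33 in the same test. The test sets the reads of 2 libraries against counting noise. It therefore compares these libraries and says nothing of a condition.

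These shifts are to be read against all genes, since most differed between the libraries. Of the 320 genes tested, 64.4% passed the threshold of 0.05, with 33.8% higher in replicate 1 like Mir221 and 30.6% lower there like Mir222. Well counted genes passed more often, with 61 of 65 genes at a mean of 1000 CPM or more, 68 of 81 between 100 and 1000 CPM, and 77 of 174 below 100 CPM. Mir221 belongs to the first of these classes and Mir222 to the second, so both calls are common ones. In size, 168 of the 320 genes shifted more than Mir221 and 61 shifted more than Mir222. The median absolute log2 ratio was 0.42. The shift of Mir221 was thus near the middle of all genes, while that of Mir222 was among the larger ones. The biological coefficient of variation estimated by edgeR over these genes was 0.370.

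**Figure D2:**
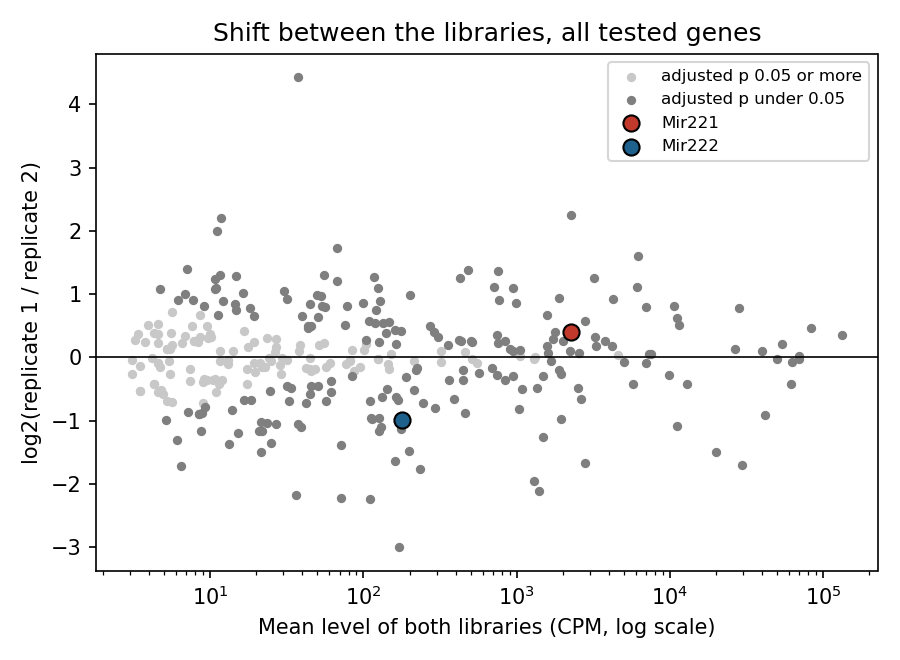
Log2 ratio of replicate 1 over replicate 2 against the mean level in CPM (log axis) for the 320 genes tested. Each point is a gene, dark grey where the adjusted p was under 0.05. Mir221, at 0.40, lies within the bulk of genes at its level, and Mir222, at -0.99, lies towards the lower edge.

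The change of the ratio within the cluster was also tested directly. The odds of a cluster read coming from Mir221 and not from Mir222 were 2.63 times higher in replicate 1 (exact 95% interval 2.34 to 2.97). This is a log2 odds ratio of 1.40 (1.22 to 1.57), and Fisher's exact test gave a Benjamini-Hochberg adjusted p of 2.98e-61 over the 75 adjacent pairs. This measure does not depend on how the libraries are scaled, because both members come from the same library. By the same test 65.3% of the pairs differed in ratio between the libraries. The change was larger in 16 pairs than in Mir221 and Mir222, and its median absolute size was 0.78. In 20 pairs, or 26.7%, both genes passed the binomial test in opposite directions, as the members did. Opposite shifts of neighbours are therefore not peculiar to this cluster in these libraries.

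**Figure D3:**
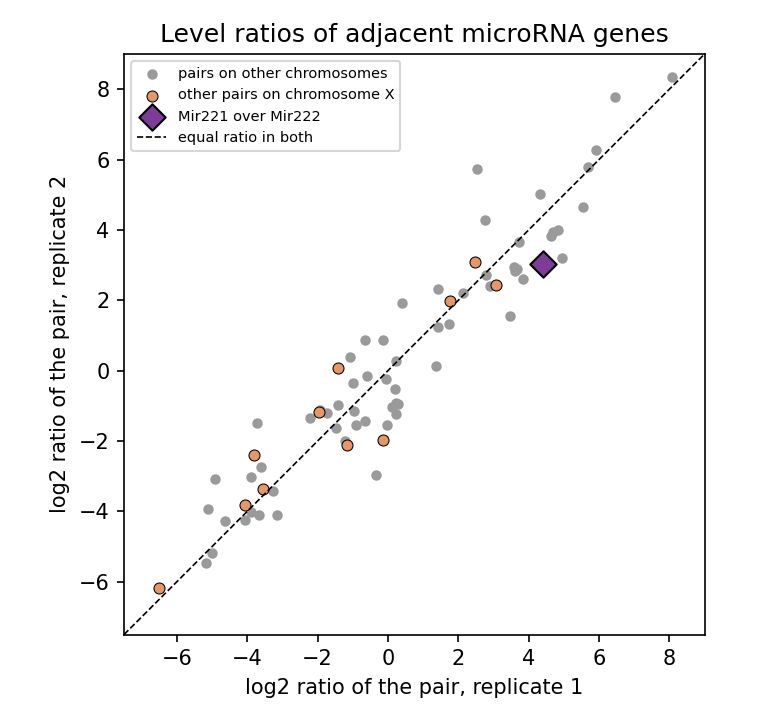
Log2 ratio of levels in 75 pairs of adjacent microRNA genes, replicate 1 on the horizontal and replicate 2 on the vertical axis. Each point is a pair, and the dashed line marks equal ratios. Mir221 over Mir222 (diamond) lies at 4.42 in replicate 1 and 3.03 in replicate 2, below the line.

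Summed over the cluster, the opposite shifts partly offset each other. The log2 ratio of the summed counts was 0.30 (counting interval 0.26 to 0.35), against 0.40 for Mir221 alone. The sum followed Mir221, which supplied most of its reads in both libraries.

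On the X chromosome, of which a male carries a single copy, the tables hold 142 microRNA genes. Of these, 32 reached 2 CPM in both libraries and 88 had no read in either. Mir221 ranked 4 among them by mean level. Above it were Mirlet7f-2, a let-7 gene, at 7280 CPM ± 149, Mir652 at 6983 CPM ± 329 and Mir322 at 4990 CPM ± 193 (SD, n = 2 each). Each of these had both libraries above both libraries of Mir221. Below it, Mir98 of the let-7 family had 2174 CPM in replicate 1 and 1826 CPM in replicate 2, and Mir361 had 2021 and 1539 CPM. Mir221 was above both within each library, at 2559 CPM in replicate 1 and 1951 CPM in replicate 2. Across the libraries their ranges overlap that of Mir221, and with 2 libraries the order was not tested.

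Of the X-linked genes, 31 were tested, with 14 higher in replicate 1, 9 lower and 8 past no threshold, beside 33.8% higher and 30.6% lower over all genes. Their median log2 ratio was 0.12, against -0.02 for all 320 genes. Without the filter on low counts 11 of 54 X-linked genes were higher and 10 lower, and Mirlet7f-2, Mir362 and Mir20b passed no threshold. In that setting the median was -0.01 for the X-linked genes, against -0.0016 for all 722 genes with a count. Without regard to strand 13 of 30 were higher and 9 lower. There Mirlet7f-2 again passed no threshold, while Mir450-2 passed it as lower (exact binomial test, adjusted p = 0.109 and 0.046). With the filter and on the gene's own strand, Mir361 had a shift of 0.41, close to that of Mir221. Of the 12 adjacent pairs on X, 10 changed their ratio by Fisher's exact test and 4 had both genes shifted in opposite directions. Over all 75 adjacent pairs these shares were 65.3% and 26.7%. The pair of Mir421 and Mir374b changed more than Mir221 and Mir222, with a log2 odds ratio of 1.85.

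The genes most like each member were those nearest in log2(CPM + 0.5) over the 2 libraries. For Mir221 these were Mir92-1 of the miR-17-92 cluster at a distance of 0.21, Mir98 at 0.25 and Mir499 at 0.36. Mir92-1 had 2294 CPM in replicate 1 and 2155 CPM in replicate 2. For Mir222 the nearest were Mir186 at 0.13, Mir1306 at 0.24 and Mir187 at 0.28. Mir186 had 109 CPM in replicate 1 and 242 CPM in replicate 2, close to Mir222 in each library. The members were not near each other, at a distance of 5.36, and 100 genes lay closer to Mir221 than Mir222 did. With 2 libraries this likeness is mainly one of level.

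Other microRNA genes with known roles in vessels showed shifts in both directions. Of 16 genes linked to endothelium and angiogenesis, 15 were tested, and 6 were higher in replicate 1, 7 were lower and 2 passed no threshold, beside 33.8% higher and 30.6% lower over all genes tested. Among those higher in replicate 1, like Mir221, was Mir10b, a gene of the Hoxd cluster, with 1002 CPM in replicate 1 and 541 CPM in replicate 2. Mir92-2 also had the higher level in replicate 1, 185 CPM, against 138 CPM in replicate 2. Among those lower in replicate 1, like Mir222, was the hypoxia-induced Mir210, with 77.2 CPM in replicate 1 and 175 CPM in replicate 2, a log2 ratio of -1.16. Mir27a, which is known to promote angiogenesis, had 1301 and 2581 CPM, a log2 ratio of -0.97. Endothelial Mir126a had 52212 and 70228 CPM, a log2 ratio of -0.41. Mir126b overlaps Mir126a on the opposite strand, and without regard to strand Mir126a kept only 15 counts in replicate 1 and 29 in replicate 2. Its log2 ratio was then -0.85, in the same direction, and passed no threshold (exact binomial test, adjusted p = 0.079).

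The other genes of this list also lay on both sides of 0. Mir132, Mir23b, Mir92-1 and Mir10a were higher in replicate 1, with shifts of 0.27, 0.21, 0.10 and 0.07 on the log2 scale. Mir24-2, Mir130a, Mir27b and Mir23a were lower there, by -1.76, -0.49, -0.42 and -0.07. Mir24-1, at -0.06, and Mir296, at -0.0046, passed no threshold. The call for Mir10a held with DESeq2 size factors but not under the other 4 alternatives, where its log2 ratio lay between -0.01 and 0.05. Mir92-1 also passed no threshold when genes with low counts were kept, so that 4 genes in place of 6 were higher in replicate 1. The median log2 ratio of the 15 genes was -0.06. Sequence shared with other hairpins was not searched for the genes of this list. Their levels and shifts are therefore those of uniquely placed reads only.

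Of 7 genes linked to smooth muscle, 4 were higher in replicate 1 and 3 were lower, with a median log2 ratio of 0.18 and against the same 33.8% and 30.6% over all genes. Without the filter on low counts 3 were higher and 3 lower, with a median of 0.11, as Mir31 then passed no threshold (exact binomial test, adjusted p = 0.087). Mir21a, known like the cluster to promote smooth muscle growth, had 4504 CPM in replicate 1 and 1908 CPM in replicate 2, a log2 ratio of 1.25. Mir145a, which marks contractile smooth muscle, had 5530 and 2953 CPM, a log2 ratio of 0.92. Its cluster partner Mir143 had 49081 and 50331 CPM, a log2 ratio of -0.02, and with DESeq2 size factors it passed no threshold (exact binomial test, adjusted p = 0.588). The remaining genes were Mir31 at 0.20, Mir146 at 0.18, Mir322 at -0.07 and Mir503 at -0.38. In mean level, Mir221 and Mir222 together, at 2434 CPM, were below Mir126a, Mir143, Mir145a and Mir21a, although in replicate 2 the sum of 2190 CPM exceeded the 1908 CPM of Mir21a.

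**Figure D4:**
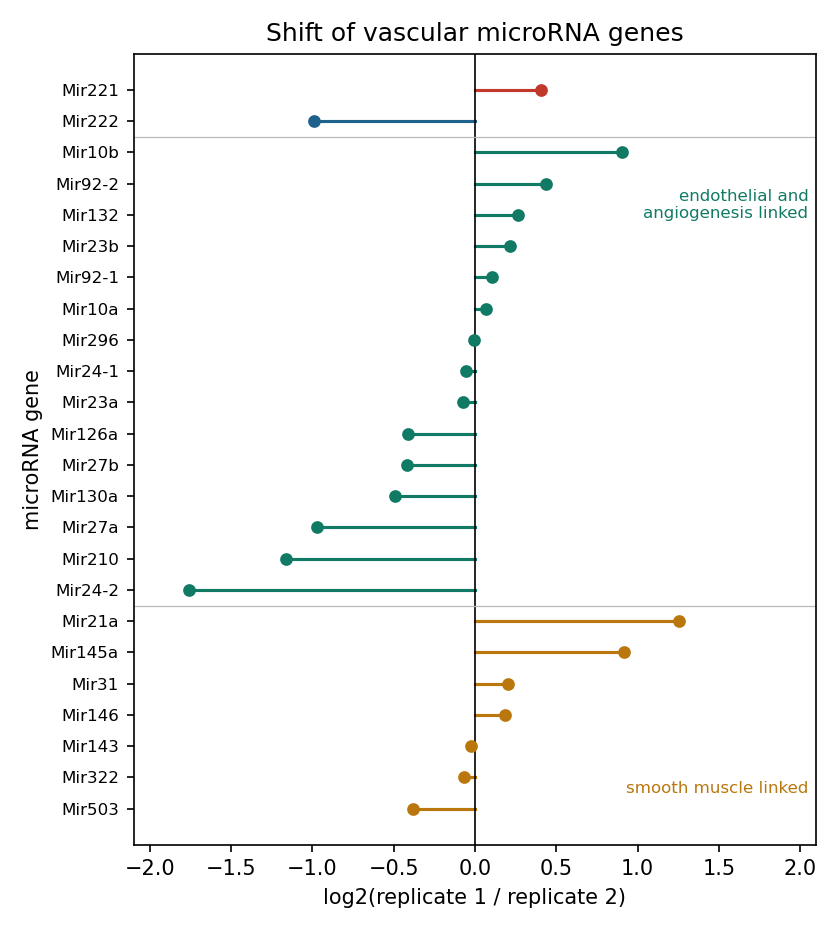
Log2 ratio of replicate 1 over replicate 2 for Mir221, Mir222, 15 endothelial and angiogenesis linked genes and 7 smooth muscle linked genes, sorted within each list. Each point is a gene and the line runs from 0. Both lists hold genes on both sides of 0, as the members do.

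Markers of the cell types of the heart differed between the libraries too. The summed level of the endothelial markers Mir126a and Mir126b was 52212 CPM in replicate 1 and 70229 CPM in replicate 2, with Mir126b at 0 counts in replicate 1 and 4 in replicate 2. The smooth muscle markers Mir143 and Mir145a summed to 54611 and 53284 CPM, with 1 gene higher and 1 lower in replicate 1. The leukocyte markers Mir142, Mir150, Mir155 and Mir223 summed to 8970 and 7190 CPM, and 4 of 4 were higher in replicate 1, where 33.8% of all genes tested were higher. Each of these 4 had a mean above 100 CPM, where genes passed the threshold more often. Without regard to strand 3 of them were tested, and 3 were higher. The cardiomyocyte markers Mir208a, Mir208b and Mir499 summed to 3954 and 6890 CPM, and 2 of 3 were lower in replicate 1, where 30.6% of all genes were lower. The log2 ratios of the leukocyte markers were 1.36 for Mir142, 0.50 for Mir223, 0.26 for Mir150 and 0.18 for Mir155. Those of the cardiomyocyte markers were -1.67 for Mir208a, -2.22 for Mir208b and 0.07 for Mir499. Mir499 was higher in replicate 1, but it turned to -0.01 without the filter on low counts and passed no threshold in 3 of 5 alternatives. The erythroid markers Mir144, Mir451a and Mir486 summed to 3222 and 2960 CPM, with 1 of 3 higher in replicate 1 and 2 lower. Over all genes tested 33.8% were higher and 30.6% lower. The log2 ratios were 0.67 for Mir451a, -0.20 for Mir144 and -0.50 for Mir486. Without regard to strand 1 of these 3 was tested, and it was lower in replicate 1. The part of cell composition in the shifts of Mir221 and Mir222 was not tested. In whole tissue, fewer cells of a type and less RNA per cell cannot be told apart.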

How the data were processed

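Raw read counts per microRNA gene were deposited by the authors as 1 table per library, without header. Per the deposited text beside each table, the assembly was mm10 and the annotation GENCODE M21; the aligner is not given in the sources used here. The 4 rows of each table that name no gene entered neither library sizes nor tests. Reads with several places in the genome made up 47.2% ± 1.07 of all reads, unmapped reads 12.2% ± 0.951 and uniquely placed reads outside genes 4.79% ± 0.673 (SD, n = 2 each). Of the 3 count columns, the strand-specific one for the gene's own strand served as the measurement. CPM was computed here over the sum of all gene rows, and log2 ratios of levels with a pseudocount of 0.5.

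Symbols and positions came from GENCODE M21, which matched all 2202 identifiers. Mature sequences came from RefSeq, and shared stretches were searched among hairpins on both strands. 3′ UTRs were those of the APPRIS principal transcript with the longest 3′ UTR of each gene.

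Library scaling used TMM in edgeR 4.0.16 (R 4.3.3) over the 320 genes past filterByExpr, and the spread was its common dispersion with an intercept only. Shifts were tested with an exact binomial test and adjacent pairs with Fisher's exact test in SciPy 1.17.1, each with Benjamini-Hochberg adjustment over all genes or pairs and a threshold of 0.05. Both tests were checked on simulated counts with counting noise only, so the check does not cover spread between libraries. Alternatives were DESeq2 1.42.0 size factors, library totals, other filters, distances, denominators and pseudocounts, the column without strand and each replicate left out. RNAfold 2.7.2 predicted folding energies.

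Named genes were both members, genes sharing their seed, the 3 genes nearest to each member, members of the vascular and marker lists, and the 3 most abundant X-linked genes; Mir361, Mir421 with Mir374b, Mir362, Mir20b, and Mir29a with Mir29b-1 were added after their values were seen. The members, lists and tests were chosen with earlier results of these data known.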

Additional observations from a re-analysis of the deposited data

How the results depend on the processing

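Over 10 results and 45 alternative values, 44 kept their direction and their side of the threshold, or moved by less than the spread of the replicates or 1.5 times for counts. The exception was the level of Mir221, which was 2927 CPM in the column without strand; there the gene had the same counts, and the sum of all gene counts was smaller. The shift of Mir221 ranged from 0.33 to 0.42 and that of Mir222 from -1.07 to -0.97 over 5 alternatives each, with adjusted p at most 1.71e-47 and 5e-32 by the exact binomial test. The log2 odds ratio of the cluster, 1.40, is not among these values, since none of its 4 alternatives changes the counts of the members, only the number of pairs tested with it. Leaving out a replicate gave levels from 1951 to 2559 CPM for Mir221 and from 119 to 239 CPM for Mir222, and a log2 ratio of Mir221 to Mir222 from 3.03 to 4.42. With 2 replicates such a value lies within their SD of the mean, whatever the data. These alternatives are among the 44 but could only be counted as kept, so they show no stability. The shift needs both libraries and could not be computed with a replicate left out. With 435 counts of Mir222 in replicate 1, its level there has the widest relative counting interval of the 4 member values. The number of libraries, 2, limits what the shifts say of other hearts. No paired analysis was possible because there is a single group.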
